A study of Mus musculus with 4 samples.

Results

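Type 1 conventional dendritic cells (cDC1) were described in single-cell RNA-seq of mouse liver tumour tissue. A cell was counted as a cDC1 when it had a UMI (a molecule counted once by its barcode) of Xcr1 or Clec9a and of at least 2 of the 6 supporting genes Irf8, Naaa, Wdfy4, Itgae, Cst3 and Flt3, and no UMI of Siglech, Cd209a, Fscn1, Clec4f, Cd3e or Cd79a. Of the 24802 cells in the table, 212 met the rule, which is 0.855% (exact Clopper-Pearson 95% interval 0.744 to 0.977%, counting error only). The tissue came from 4 samples of C57BL/6 mice killed at 5 months of age, 2 labelled Miz1F/F and 2 labelled Miz1Δhep. All 4 samples had the same tumour induction: the carcinogen DEN at 25 mg/kg at week 2 after birth, then the liver toxin CCl4 at 0.5 ml/kg every week. Miz1 is a zinc-finger transcription factor, F/F marks floxed alleles, and the label Δhep names the hepatocyte as the deleted cell; the labels used here do not give the Cre line or its promoter. Zbtb17, the gene of Miz1, is not among the genes analysed here, so the deletion was not checked in these cells.

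Conventional dendritic cells take up antigen in tissue, carry it to lymph nodes and present it to T cells. The type 1 lineage depends on the transcription factors Irf8, Batf3 and Id2, displays the chemokine receptor Xcr1 and the dead-cell receptor Clec9a (DNGR-1), and is known for moving antigen from engulfed cells onto MHC class I for CD8 T cells. In liver it is a rare resident cell beside the more frequent type 2 conventional dendritic cell (cDC2), which depends on Irf4, and the plasmacytoid dendritic cell (pDC), known for type I interferon. After activation both conventional types can enter a shared migratory state marked by Fscn1, Ccr7 and Ccl22.

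The table pooled 4 sets of cell barcodes, here called barcode sets 1 to 4, of 2574, 6224, 4825 and 11179 cells and 9093921 to 35033778 UMIs. Nothing in the sources used here tied a set to a sample, so no comparison of Miz1F/F with Miz1Δhep was made, and no p-values are given. In its place, levels of a gene were compared between cDC1 and other dendritic cells within each set. A level is the sum of a gene's UMIs over the cells of a class in 1000000 UMIs of that class (CPM). Of all barcodes, 373 occurred in more than 1 set, among them those of 6 cDC1, and no barcode was shared by 2 cDC1.

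The cDC1 numbered 23, 54, 68 and 67 in sets 1 to 4. They made up 0.894%, 0.868%, 1.41% and 0.599% of the cells of these sets, highest in set 3 and lowest in set 4. Against cDC2, chosen by an analogous rule (Cd209a with at least 2 of Clec10a, Sirpa, Cst3, Flt3, Itgax and Irf4), the share was steadier: cDC1 were 35.4%, 36.0%, 36.2% and 33.0% of the 606 conventional dendritic cells in sets 1 to 4, and 35.0% over all sets. The cDC1 carried 1211123 UMIs in all, with a median of 4354 UMIs per cell (901 to 38702) and set medians of 9940, 2909.5, 3011 and 8368. The rule asks for detection of several genes, and its members were deeper than the 394 cDC2 (median 2650.5 UMIs) and than all cells (1518).

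The genes of the rule were at these levels by construction, and they are given as a description. Xcr1, the receptor for the chemokine Xcl1, was at 163, 241, 329 and 214 CPM in sets 1 to 4. Clec9a was at 93.7, 294, 240.4 and 140.1 CPM. A UMI of Xcr1 alone put 59 cells in the class, Clec9a alone 85, and 68 cells had both. Cst3, which encodes the protease inhibitor cystatin C, was by far the most abundant gene of the rule at 16192 CPM, and all 212 cells had it. Irf8 was at 783 CPM (173 cells), the lipid amidase gene Naaa at 525 (159 cells) and Wdfy4, which is needed for cross-presentation by cDC1, at 404 (156 cells). The cytokine receptor gene Flt3 was at 135 CPM (104 cells) and the integrin gene Itgae, which encodes CD103, at 56.1 (48 cells). Just inside the rule stood 29 cells with exactly 2 supporting genes, with Irf8 at 283 CPM and Naaa at 51.4. Just outside stood 30 cells with 1 supporting gene, with Irf8 at 84.1 CPM and Naaa at 0, and another 137 cells left out for a UMI of a single barred gene, which was Siglech in 74 of them.

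The label was checked with 9 markers of cDC1 that the rule does not use: Cadm1, Tlr3, Batf3, Id2, Ifi205, Ppt1, Rab7b, Gcsam and Snx22. The median cDC1 had UMIs of 4 of the 9. At least 3 were found in 173 of the 212 cells, and none in 9. The plot of outside markers per cell shows most cells between 3 and 6. Among cells left out for a single barred gene, the 21 with Clec4f, all in set 4, also had a median of 4. Their level of the complement gene C1qa was 1814 CPM. The 13 left out for Cd79a had a median of 4 and the 74 left out for Siglech of 1.

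Some cells carried RNA that went against the label. In 20 members at least 5 UMIs came from the complement genes C1qa, C1qb and C1qc, which macrophages and Kupffer cells express. These 20 cells (3, 1, 5 and 11 in sets 1 to 4) had Xcr1 at 31.0 CPM, Naaa at 124 and Tlr3 at 0, against 252, 573 and 69.3 CPM in the other 192. Their C1qa level was 3335 CPM, against 21.3 in the others. Of the 9 outside markers, Cadm1 (171 against 152 CPM) and Id2 (1047 against 712) were higher in these cells and the rest lower. At least 3 of the 9 were found in 13 of the 20, and none of the 20 lacked all 9. A further cell of set 4, the deepest at 38702 UMIs, held at least 5 UMIs of the keratin genes Krt8 and Krt18 and Alb at 23823 CPM, and 4 cells held between 1421 and 2428 globin UMIs. Without these 25 cells 187 members remain, and the list medians against cDC2 given below are repeated without them where they changed by over 1.5 times.

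Summed over all 212 cells, the 8 macrophage markers reached 1411 CPM (1914, 336, 556 and 1851 in sets 1 to 4), against 2080 CPM in all cells outside the class. The 10 hepatocyte markers summed to 5270 CPM against 21679, and the 7 erythroid markers to 6852 against 14714. T-cell markers were at 23.9 CPM and NK-cell markers at 24.8, with Prf1, Klra8 and Eomes at 0. Of 7 markers of basophils and mast cells, 6 were at 0. The part of such RNA in the levels below was not tested.

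**Figure D1:**
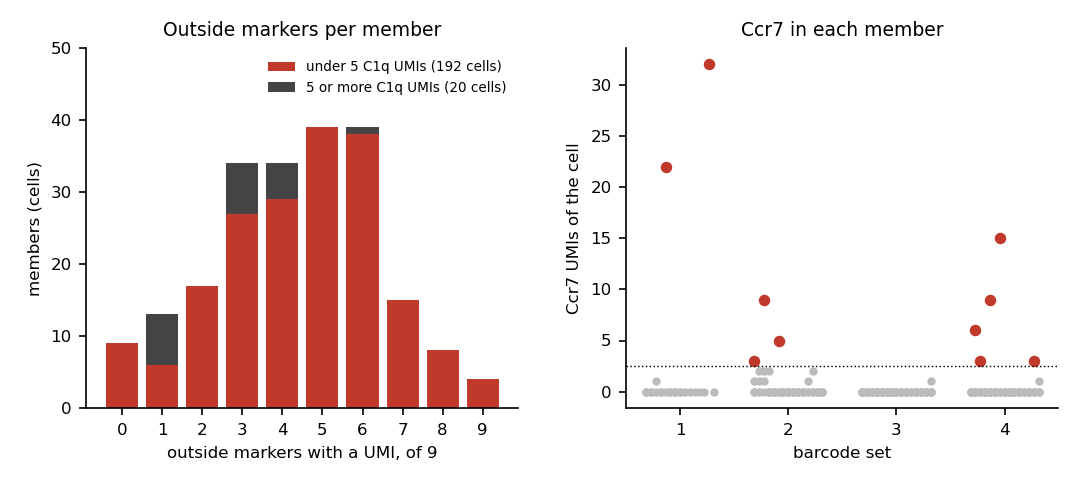
Left, bars count the 212 cDC1 (vertical axis, cells) by how many of 9 markers outside the rule had a UMI; dark segments are the 20 cells with at least 5 C1q UMIs. Right, each point is 1 cDC1, its Ccr7 UMIs on the vertical axis and its barcode set on the horizontal axis; the 10 red points above the dotted line have at least 3 Ccr7 UMIs, none of them in set 3.

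Against cDC2, the genes that stood out as higher in cDC1 included the lysosomal enzyme gene Ppt1, the late endosome gene Rab7b, the DNA sensor gene Ifi205 and the RNA sensor gene Tlr3, and among those lower were S100a4, Mgl2 and Nfkb1. After leaving out the genes of either rule and those under 50 CPM in both classes, 2516 genes were compared as log2 ratios of (CPM + 10) in each set, a scale that understates the difference of low genes. A gene under 50 CPM in 1 class was tested only because of its level in the other, so the direction of its pooled levels was built in. A gene was called when it differed at least 2-fold in the same direction in all 4 sets. That held for 37 genes higher in cDC1 (1.47% of the 2516) and 63 genes lower (2.5%). Without the cells rich in RNA of another cell type in either class, 48 were higher and 90 lower, of which 35 and 62 were among the genes called with all cells.

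Ppt1, a lysosomal thioesterase, had the ratio furthest from 0 in its nearest set among the higher genes. It was at 460.2, 830.4, 739 and 699 CPM in sets 1 to 4 of cDC1 and 39.7, 49.5, 62.5 and 64.4 CPM in cDC2. The lowest cDC1 set was above every cDC2 set, and the median log2 ratio was 3.31 (3.24 to 3.82 over the sets). Rab7b, a small GTPase of late endosomes, was at 281, 359, 334 and 289 CPM against 36.7, 38.5, 25.0 and 23.7 in cDC2, a median log2 ratio of 3.04. Ifi205, an interferon-inducible gene of the PYHIN family of DNA sensors, was at 326, 436, 338 and 291 CPM against 42.8, 11.0, 12.5 and 18.4. Its median log2 ratio of 3.68 was the highest of the 2516 genes, with 2.67 to 4.41 over the sets. Ncoa7, linked to vesicle and lysosome function, was at 314, 259, 200.3 and 233 CPM against 18.3, 22.0, 20.8 and 26.3, and Trim35, an E3 ubiquitin ligase gene, at 297, 554, 280.4 and 331 against 79.4, 44.0, 41.6 and 84.2. In each of these the groups of 4 sets did not overlap. They were chosen by their ratio in the set nearest 0, so this follows largely from the choice. The share of such genes among the 2516 was not counted.

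**Figure D2:**
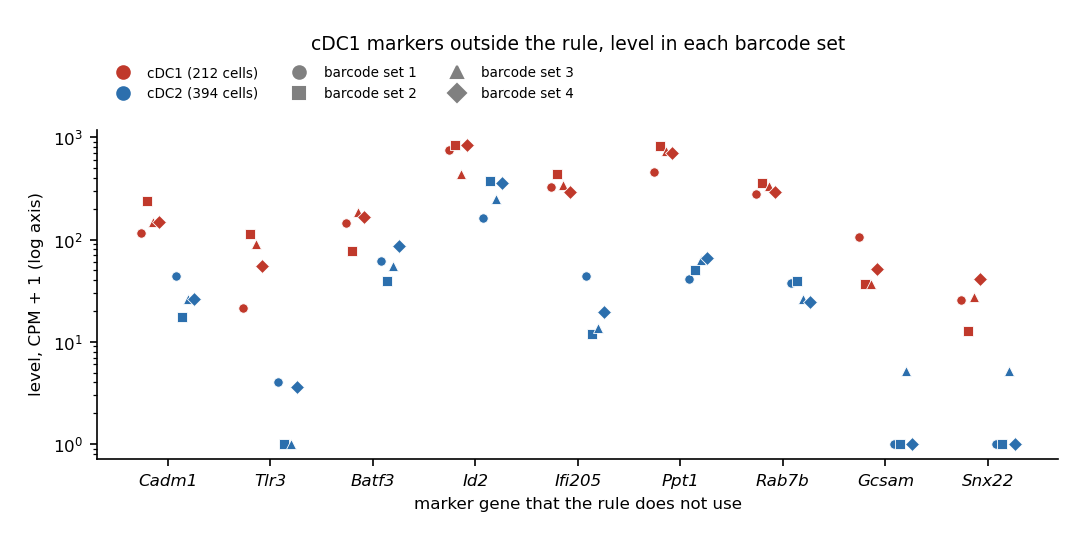
Level (CPM + 1, log axis) of the 9 cDC1 markers outside the rule in each barcode set (marker shape) of cDC1 (red, 212 cells) and cDC2 (blue, 394 cells). Ppt1 lay between 460 and 830 CPM in cDC1 and at most 64.4 CPM in cDC2, and Batf3 and Id2 were the closest of the 9 between the classes.

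Of the 21 further cDC1 markers on the list that were in the table, 13 passed the filter on low levels. Of these, 12 were higher in cDC1 in every set (19.7% of all 2516 genes were) and 9 were called higher (1.47%). The list was made of genes known to mark this lineage, so its direction describes the class and is no independent evidence. Cadm1, an adhesion molecule, was at 114, 236, 147 and 149 CPM against 42.8, 16.5, 25.0 and 25.0 in cDC2. Tlr3, the endosomal receptor for double-stranded RNA, was at 20.4, 112, 89.0 and 54.3 CPM, with 75 UMIs in 54 cells, against 3 UMIs in all cDC2. Cd24a, a surface sialoglycoprotein gene, was at 399 against 73.5 CPM, the scavenger receptor gene Cd36 at 119.7 against 12.6, and Gcsam at 57.0 CPM against 1 UMI in cDC2. The lineage transcription factors differed less. Batf3 was at 143, 76.6, 187 and 165 CPM against 61.1, 38.5, 54.1 and 85.5 (median log2 ratio 0.99), and Id2 at 745, 848, 432 and 842 against 162, 374, 246 and 355 (1.19). Both were higher in all 4 sets without reaching 2-fold in each. Btla, an inhibitory receptor gene, was at 71.8 against 24.5 CPM and also missed the call. Nfil3, a transcription factor gene needed for cDC1 development, went the other way, at 58.6 against 92.1 CPM, with mixed signs over the sets. The other 8 listed markers stayed under 50 CPM in both classes: Septin gene Sept3 at 41.3 against 1.99, Mycl at 49.5 against 3.31, Plpp1 at 41.3 against 6.62, Tlr11 at 30.6 against 1.32, Snx22 at 30.6 against 0.662, Ly75 at 27.2 against 3.31, Plet1 at 17.3 against 9.94 and Gpr33 at 11.6 against 0.

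The promoters of the genes called higher were searched for interferon and AP-1 motifs, since Irf8 and Batf3 bind such sequences. RefSeq promoters of build GRCm38.p6 were found for 28 of the 37 higher genes, 51 of the 63 lower genes and 2005 of the 2516. The 250 bases before the start site were searched on both strands. The interferon response element (GAAA, any 2 bases and GAAA again) was present in 2 of the 28 higher genes (7.14%), 3 of the 51 lower genes (5.88%) and 4.39% of the genes tested, against 3.46% of the 27025 genes with a promoter. The 2 higher genes that had it, Ifi205 and Apol7c, are shown because they are the only carriers, with the matching bases in capitals. The match in Ifi205 begins 134 bases before the start site on the gene's strand (chr1:174031756-174032005, minus strand). Apol7c has 2 overlapping matches on the opposite strand, 55 and 49 bases before its start (chr15:77533316-77533565, minus strand).
Ifi205: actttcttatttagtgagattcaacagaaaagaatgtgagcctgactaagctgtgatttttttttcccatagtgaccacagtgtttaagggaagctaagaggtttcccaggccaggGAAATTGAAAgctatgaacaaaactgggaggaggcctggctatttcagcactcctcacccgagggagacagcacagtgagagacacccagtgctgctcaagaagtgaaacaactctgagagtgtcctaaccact
Apol7c: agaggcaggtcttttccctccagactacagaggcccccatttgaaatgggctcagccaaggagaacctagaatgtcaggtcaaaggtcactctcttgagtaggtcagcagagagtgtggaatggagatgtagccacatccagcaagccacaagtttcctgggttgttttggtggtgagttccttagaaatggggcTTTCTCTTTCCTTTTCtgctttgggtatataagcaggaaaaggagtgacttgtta

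The Ets and IRF composite element (GGAA, any 2 bases and GAAA) was in none of the 28 and in 5 of the 51 lower genes (9.80%), against 2.34% of the genes tested. The AP-1 site TGANTCA was in 2 of the 28 (7.14%), P2ry14 and Adam19, against 6.18% of the genes tested. The AP-1 and IRF composite elements, in which GAAA follows TGANTCA after 4 bases or stands directly before it, contain the AP-1 site and were in none of the 28 or the 51. A match or its absence describes these windows only.

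Of the 10 genes furthest higher, 4 are not yet described. Rtl8a, a retrotransposon-derived gene, was at 167 against 13.9 CPM (median log2 ratio 3.03). The protease inhibitor gene Serpinb6b was at 69.4 against 7.29 CPM and the metalloprotease gene Adam8 at 98.3 against 13.9. Apol7c, an apolipoprotein L gene tied to cross-presentation by cDC1, had 63 UMIs (52.0 CPM) and none in cDC2, where the limit of 3 UMIs over the class is 1.99 CPM, so it was at least 26.2-fold higher. Only 8 of the 212 cDC1 had a UMI of it, and the top 5 cells held 92.1% of its UMIs. All its UMIs in set 3 lay in 3 of the 25 cells rich in RNA of another cell type, and without those cells Apol7c was not called. Its level thus described a few cells, unlike Ppt1, which 175 cells had and of which the top 5 held 9.28%. Chosen after their values were seen, 3 more called genes were P2ry14, a receptor for UDP-sugars, at 96.6 against 7.95 CPM, Anpep, the aminopeptidase CD13, at 68.5 against 10.6, and Dnase1l3, a secreted nuclease, at 147 against 26.5.

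**Figure D3:**
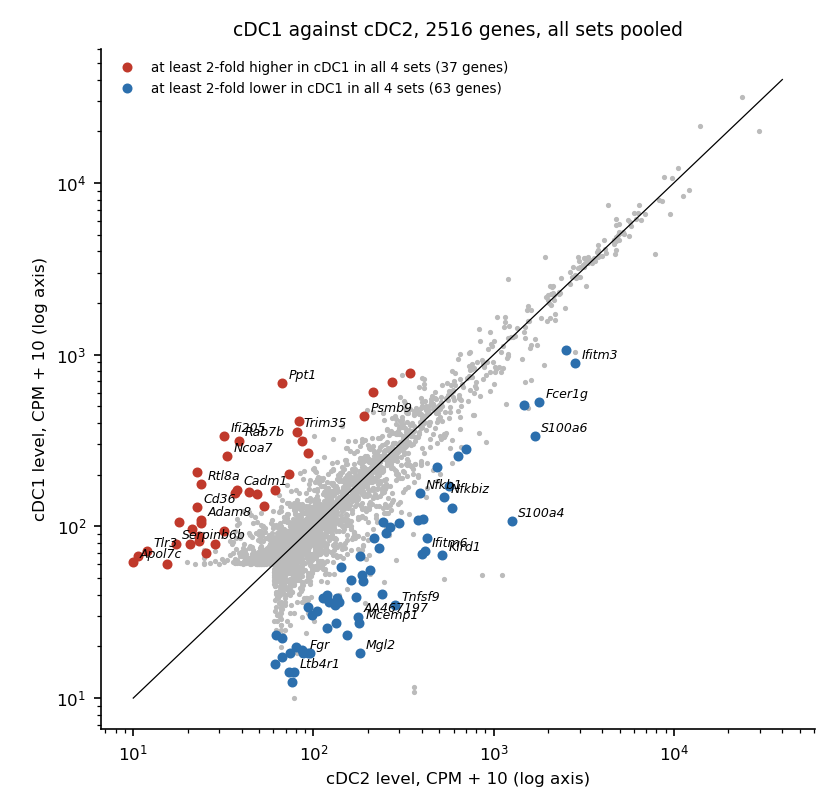
Level in cDC1 (vertical) against cDC2 (horizontal), CPM + 10 on log axes, for 2516 genes with all barcode sets pooled; the line marks equal levels. Red points are the 37 genes at least 2-fold higher in cDC1 in all 4 sets and blue points the 63 at least 2-fold lower, with Ppt1 and S100a4 far from the line.

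The genes furthest lower in cDC1 included calcium-binding proteins, lectins and receptors. S100a4, a calcium-binding protein gene, was at 143, 47.1, 66.8 and 105 CPM in sets 1 to 4 against 1858, 995, 1487 and 979.9 in cDC2. Its median log2 ratio was -3.88, and 28 of the 212 cDC1 had a UMI. S100a6 was at 472, 289, 303 and 284 CPM against 1931, 1225, 1819.8 and 1653, a median log2 ratio of -2.28. The groups of sets did not overlap for either gene, which again follows largely from how they were chosen. Klrd1, which encodes the killer lectin-like receptor CD94, was at 57.8 against 509 CPM (-2.97). Mgl2, a galactose-binding lectin that marks cDC2, was at 8.26 against 171. Tnfsf9, the costimulatory ligand 4-1BBL, was at 36.7, 47.1, 8.9 and 19.3 CPM against 379, 231, 175 and 271 (-3.16). The leukotriene B4 receptor gene Ltb4r1 was at 4.13 against 67.6 CPM, the Src-family kinase gene Fgr at 8.26 against 77.5, and the mast cell membrane protein gene Mcemp1 at 17.3 against 169.6. Ifitm6 was at 61.9 against 407 CPM and AA467197 at 19.8 against 166. Outside the 10, and chosen after its values were seen, Itgam, the integrin CD11b, was at 8.26 against 85.4 CPM.

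For MHC class I, 14 of 17 listed genes were measured above the filter. In every set 7 were higher in cDC1 (19.7% of all genes) and 3 lower (22.1% of all genes), and 1 was called higher (1.47%). The median log2 ratio of the list was 0.24, against 0 over all genes. Psmb9, a subunit of the immunoproteasome and the called gene, higher in cDC1, was at 546, 241, 272 and 492 CPM against 217, 93.4, 95.8 and 213 (median log2 ratio 1.29). Psmb8, the next subunit, was at 1401, 324, 609.9 and 1180.1 against 804, 231, 354 and 767 (0.69), and the proteasome activator genes Psme1 and Psme2 were at 723 and 516 CPM against 390.1 and 314. Within each set cDC1 were above cDC2 for these 4 genes, although the range of Psmb8 over sets was wider than the distance between the classes, and only Psmb9 differed by 2-fold in each. The peptide transporter genes Tap1 and Tap2 were at 132 against 108 CPM and 119 against 78.8, also higher in each set. Of the class I molecules themselves, B2m was at 2516 against 3254 CPM (-0.28), H2-D1 at 1224 against 1682 (-0.42), both lower in all 4 sets, and H2-K1 at 949.5 against 1169.8 with mixed signs. Psmb9, Psme1, Psme2, Tap1 and Tap2 are named after their values were seen.

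Of the MHC class II list 11 of 12 genes were measured and none was called. In every set 1 was higher (19.7% of all genes) and 4 lower (22.1% of all genes). The list's median log2 ratio was -0.41. The gene higher in every set was H2-Ob, a part of the H2-O inhibitor of peptide loading, at 102 against 91.4 CPM, and H2-DMb1, of the H2-DM loading factor that H2-O restrains, was at 778 against 947, both named after their values were seen. Cd74, the invariant chain, was at 26356, 12774, 14401 and 21796 CPM in cDC1 and 35033, 17034, 14766 and 34899 in cDC2, lower in each set. H2-Ab1 was at 9121 against 12112 CPM, H2-Aa at 8415 against 11241 and H2-Eb1 at 6577 against 9456. For these 3 chains set 3 was slightly higher in cDC1 and the other sets lower. With the median of all genes set to 0 in each set, 1 class II gene was lower in every set and none higher (527 and 513 of all 2516 genes).

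The cross-presentation list had 15 of 18 genes measured, with a median log2 ratio of -0.09. In every set 3 were higher (19.7% of all genes) and 6 lower (22.1%). Apol7c was called higher (1.47% of all genes were) and 1 gene was called lower (2.5%). Without the cells rich in RNA of another cell type none was called higher and 3 were called lower (48 and 90 of all 2516 genes). Cyba, a membrane subunit of the NADPH oxidase, which limits acidification of the phagosome, was at 994 against 1193 CPM, while its partner Cybb was at 80.1 against 348 (-2.41), lower in all 4 sets. Ctss, the cathepsin that trims the invariant chain, was at 684 against 1482 CPM (-1.01, or -1.66 without the cells rich in RNA of another cell type). The translocon genes Sec61g and Sec61b were at 878 against 752 and 721 against 699 CPM. Cybb is named after its values were seen.

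**Figure D4:**
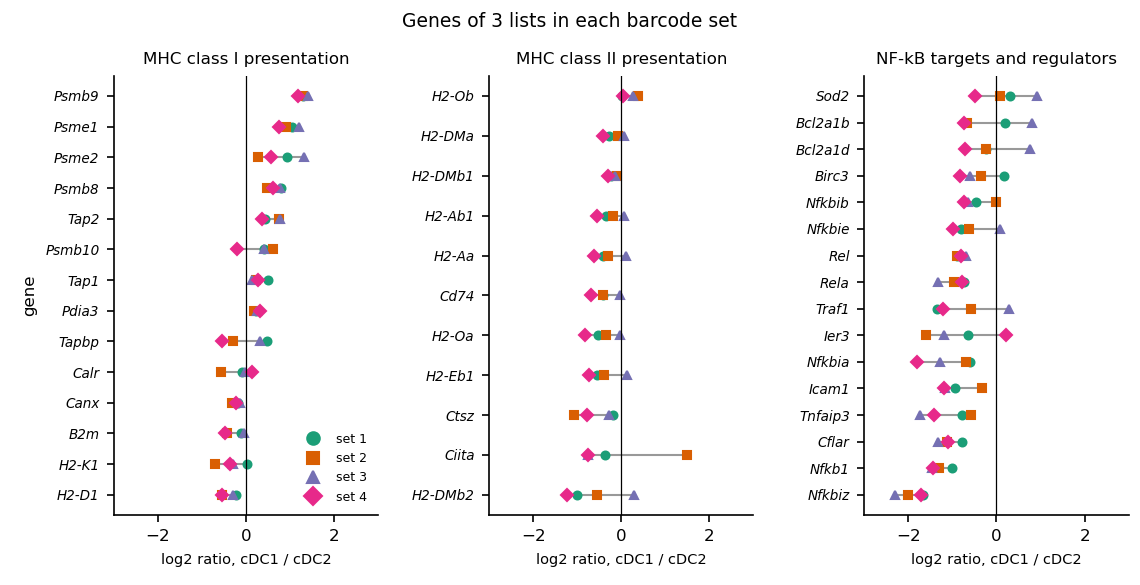
Log2 ratio of (CPM + 10), cDC1 over cDC2, of each gene of 3 lists (horizontal axis); points are the 4 barcode sets and lines span them. Psmb9 was above 1 in every set, Nfkb1 and Nfkbiz were below -1 in every set, and most class II genes lay between -1 and 0.

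Costimulatory and checkpoint genes had 10 of 18 members above the filter, a median of -0.28, 1 higher and 5 lower in every set (19.7% and 22.1% of all genes), and Tnfsf9 as the called gene, which was lower. Tnfsf9 passed the filter only through its level in cDC2. Without the cells rich in RNA of another cell type the median was -0.53. Cd52, a small surface glycoprotein gene, was at 2830.4 against 2917 CPM and Cd48 at 173 against 223, with mixed signs. Cd47, the signal that restrains phagocytosis, was at 411, 259, 227 and 343 CPM against 422, 533, 454 and 526, lower in each set. Values chosen after they were seen were those of Cd86, the ligand of CD28, at 119 against 123 CPM, Cd40 at 56.1 against 125, and Havcr2, which encodes TIM-3, at 73.5 against 39.1. Cd40 was lower and Havcr2 higher in all 4 sets, neither by 2-fold in each.

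Of 15 cytokine genes in the table only 6 passed the filter, 4 were lower in every set (22.1% of all genes) and none was called, with a median of -0.60. With each cell thinned to 1000 UMIs 1 of 5 was lower in every set (444 of all 2753 genes). Il1b, interleukin-1β, was the most abundant, at 2106, 1319, 472 and 697 CPM in cDC1 and 4498, 2368, 999 and 2794 in cDC2 (-1.08). It was lower in each set, while both classes were highest in set 1 and lowest in set 3. Without the cells rich in RNA of another cell type the list's median was -1.28 over 5 genes, with 1 called lower (90 of all 2516 genes). Tgfb1 was at 201 against 302 CPM, Il1rn, the interleukin-1 receptor antagonist, at 37.2 against 76.8, and Ebi3 at 21.5 against 68.2. Il1rn and Ebi3 passed the filter only through their levels in cDC2. The cytokine cDC1 are best known for, interleukin-12, had no UMI of its Il12a chain, which allows up to 2.48 CPM, and 76 UMIs of Il12b in 8 cells.

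Chemokines were measured for 11 of 13 genes, with a median of -0.35, 1 higher and 4 lower in every set (19.7% and 22.1% of all genes), 2 called lower (2.5%), and a median of -0.62 without the cells rich in RNA of another cell type. The called genes were Ccl9 at 59.4 against 391 CPM and Ccl6 at 99.1 against 370.3, both myeloid chemokines. Cxcl16 was at 289.8 against 329, Cxcl2 at 412 against 479.6 and Ccl4 at 322 against 368, each with mixed signs over the sets. Ccl17 was at 0, 17.7, 4.45 and 77.0 CPM against 574, 22.0, 8.33 and 776, so its gap rested on sets 1 and 4. Cxcl9, which draws CXCR3-bearing T cells, was the 1 higher in every set, at 477, 76.6, 614 and 221 CPM against 45.8, 54.9, 187 and 88.1. It was not called, and the top 5 cells held 58.4% of its UMIs. Among receptors, 6 of 12 were measured, 4 were lower in every set (22.1% of all genes) and Ccr1 was called lower (7.43 against 57.0 CPM). Ccr1 passed the filter only through its level in cDC2. After thinning, none of 7 was lower in every set (444 of all 2753 genes) and none was called. Ccr2 was at 186 against 321 CPM, Cxcr4 at 65.2 against 139.8 and Ccr7 at 101 against 121. Ccl9, Ccl6, Cxcl9 and Ccr1 are named after their values were seen.

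Of the C-type lectins and uptake receptors 10 of 19 genes passed the filter, with a median of -1.29. Of these, 7 were lower in every set (22.1% of all genes) and 4 were called lower (2.5%), Mgl2, Cd209d, Clec4a2 and Fcer1g. The rule for cDC2 uses the lectins Cd209a and Clec10a, and a gene such as Mgl2 passed the filter only through its level in cDC2, so the direction of this list is partly built in. Fcer1g, the signalling chain that Fc receptors and several lectins share, was at 855, 165, 298 and 573 CPM against 2438, 1126, 1274 and 1801 (-1.85). The inhibitory Fc receptor gene Fcgr2b was at 80.1 against 187 CPM. Clec12a, a receptor for uric acid crystals, was the exception at 141 against 109 CPM, with a median log2 ratio of 0.39 and mixed signs. Without the cells rich in RNA of another cell type the list's median was -1.99, with 7 called lower (90 of all 2516 genes).

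Innate sensors were measured for 6 of 19 genes, with a median of -0.63, 4 lower in every set (22.1% of all genes) and Tlr2 called lower (24.8 against 121 CPM). Tlr2 passed the filter only through its level in cDC2. The sensor genes Tlr3 and Ifi205, both called higher, were counted among the cDC1 markers and not here. The direction of this list is thus partly built in. Unc93b1, the chaperone that carries endosomal Toll-like receptors, was at 296 against 266 CPM. The inflammasome genes Pycard and Nlrp3 were at 162 against 238 and 102 against 183 CPM. Chosen after its values were seen, Tlr12, which acts with Tlr11 on profilin, was at 31.4 CPM against 1.32 in cDC2 and 39.9 in pDC, under the filter in each. Tlr9 had no UMI in cDC1.

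Interferon response genes were measured for 8 of 24 genes, with a median of -0.66, 6 lower in every set (22.1% of all genes) and 2 called lower (2.5%). The called genes encode membrane proteins that block viral entry: Ifitm3 was at 1698, 559, 534 and 770.4 CPM against 4556, 1352, 1941 and 2715 (-1.61), and Ifitm2 at 1059, 212, 178 and 476 against 2649, 609.9, 612 and 1419 (-1.52). Bst2, tetherin, was at 220.5 against 319.9 CPM and Ifitm1 at 53.7 against 278. With each cell thinned to 1000 UMIs 12 genes passed the filter and the median was -0.15, with 3 called lower (58 of all 2753 genes).

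Genes of the NF-kB pathway, which the series studied in hepatocytes, tended to lower levels in cDC1 than in cDC2, though most were not called. NF-kB dimers of Rel proteins are held in the cytoplasm by IkB proteins and induce their own inhibitors when released. Of 20 listed genes 16 were measured, with a median log2 ratio of -0.89. In every set none was higher and 9 were lower (22.1% of all genes were), and 2 were called lower (2.5% of all genes). Nfkb1, the p50 subunit, was at 130.3, 247, 165 and 117 CPM against 272, 626, 471 and 335 (-1.37), and Nfkbiz, the nuclear regulator IkB-ζ, at 151, 165, 80.1 and 149 against 498, 692, 437 and 514 (-1.86). Both were lower by over 2-fold in each set. Nfkbia, the inhibitor IkBα, was at 1287, 995, 454 and 452 CPM against 1962, 1610.0, 1124 and 1614 (-0.99), and Rel, the c-Rel subunit, at 314, 512, 298 and 357 against 596, 967, 491 and 629 (-0.85). The deubiquitinase gene Tnfaip3 (A20) was at 115 against 258 CPM. The survival genes Bcl2a1b and Bcl2a1d, near-identical copies whose reads the counting may split, were at 400.5 against 509 and 335 against 452 CPM with mixed signs. The median of the list stayed between -1.11 and -0.73 under the alternatives run. Nfkb1, Nfkbiz and Tnfaip3 are named after their values were seen.

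Immediate early and heat shock genes, which tissue digestion can induce, were also compared. Of 17 immediate early genes 16 were measured, with a median of -0.36, 1 higher and 9 lower in every set (19.7% and 22.1% of all genes) and none called. Junb was at 1131 against 1721 CPM, Jund at 751 against 892, Btg2 at 709 against 858 and Fos at 586 against 768. Heat shock genes had a median of -0.10 over 9 of 12 genes. The chaperone gene Hspa8 was at 2143 against 1931 CPM, Hsp90ab1 at 1242 against 1185, Hsp90aa1 at 525 against 706 and the mitochondrial Hspe1, alone higher in every set, at 662 against 399. The 80 ribosomal protein genes had a median of 0.05. The part of digestion in the NF-kB values was not tested.

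Of the conventional dendritic cell genes outside the rules, 10 of 13 were measured with a median of -0.19. Cd83 was at 492 against 508 CPM, and Spi1, which encodes PU.1, at 356 against 411. Id3 was at 224 against 219 CPM, and Csf2rb, the shared chain of the GM-CSF receptor, at 229.5 against 180.2, higher in each set. The called gene was Batf, a relative of Batf3, lower at 65.2, 0, 13.4 and 22.8 CPM against 192, 49.5, 79.1 and 134, and named after its values were seen. Of the maturation programme 8 of 15 genes were measured, with a median of -0.53, 3 lower in every set (22.1% of all genes) and Samsn1, an adaptor gene, called lower at 80.9 against 243 CPM. Marcksl1 was at 599, 224, 240.4 and 219 CPM against 1051, 984, 491 and 933, lower in each set. Ccl5 was at 175 against 178 with mixed signs, and the top 5 cells held 73.1% of its UMIs in cDC1. Lineage transcription factors had a median of -0.30 over 14 genes, and of -0.66 over 13 when every cell had equal weight. Cebpb was at 111 against 295 CPM (median log2 ratio -1.33, or -1.66 without the cells rich in RNA of another cell type), Klf4 at 118 against 234 and Irf5 at 182 against 139.8, none of them called. Nr4a3, a nuclear receptor induced by activation, was at 118, 1484, 267 and 135 CPM in cDC1 and 144, 912, 304 and 188 in cDC2, highest in set 2 of both.

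**Figure D5:**
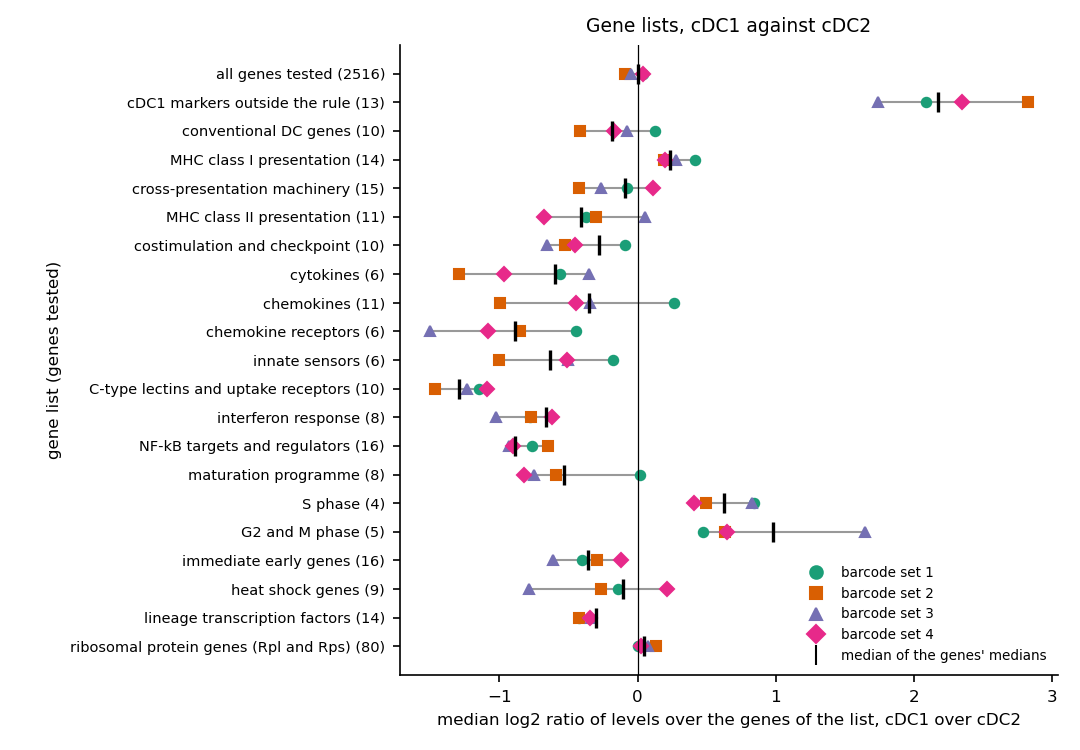
Median log2 ratio of levels, cDC1 over cDC2 (horizontal axis), over the measured genes of each list (their number in brackets), in each barcode set (coloured shapes) and as the median of the genes' medians (black bar). The cDC1 markers outside the rule lay between 1.74 and 2.83 in the 4 sets, the NF-kB list between -0.93 and -0.65, and all genes near 0.

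No gene of cell division was called against cDC2. Hmgb2, a chromatin protein abundant in dividing cells though not confined to them, was at 529, 371, 543 and 629 CPM against 220.0, 236, 167 and 376 in cDC2 (0.98). Top2a, the topoisomerase of mitotic chromosomes, was at 57.0, 58.9, 93.5 and 59.5 CPM against 6.11, 27.5, 8.33 and 48.7 (1.47). Both were higher in each set. Cenpa was at 71.0 against 51.7 CPM and Tubb4b at 73.5 against 63.6, with mixed signs. Of the S phase genes, Dut was at 79.3 against 34.4 CPM, Mcm3 at 52.8 against 18.5 and Pcna at 131 against 108, each higher in all 4 sets, and Slbp at 67.7 against 74.8. Only 5 of 18 G2 and M genes and 4 of 18 S phase genes passed the filter, with medians of 0.98 and 0.63 and none called. The G2 and M median depended on how cells were weighted: it was 0.06 over 3 genes when every cell had equal weight and 0.16 over 3 genes with each cell thinned to 1000 UMIs. Of the 4 S phase genes 3 were higher in every set (19.7% of all genes), but 2 without the cells rich in RNA of another cell type (519 of all 2516 genes) and none after thinning (326 of all 2753).

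At least 2 UMIs over the 18 G2 and M genes were found in 101 of the 212 cDC1, 47.6% (exact 95% interval 40.8 to 54.6%), and in 30.7% of cDC2. Such a share grows with depth, so each cell was thinned to 1000 UMIs, which left out 1 cDC1 and 15 cDC2. The share was then 13.7% of 211 cDC1 (9.40 to 19.1%), with 4.35%, 14.8%, 13.4% and 16.4% in sets 1 to 4. In cDC2 it was 6.07% of 379 (3.89 to 8.97%), with 4.88%, 4.30%, 2.63% and 10.7%. The cDC1 share was above that of cDC2 in sets 2 to 4, on 8, 9 and 11 cDC1, and not in set 1, on 1 of 23. Within each set the cDC1 and cDC2 intervals overlapped. In pDC the thinned share was 5.47%, and in the class marked by Fscn1, described below, 10.7% of 168 (6.47 to 16.4%), close to that of cDC1. Without Hmgb2 and Tubb4b, which cells outside the cycle also express, 15 of 211 cDC1 (7.11%, 4.03 to 11.5%), 9 of 379 cDC2 (2.37%, 1.09 to 4.46%) 5 of 823 pDC (0.608%) and 7 of 168 cells of the Fscn1 class (4.17%) reached 2 UMIs after thinning. In sets 1 to 4 these were 0, 3, 4 and 8 cDC1, and the cDC1 and cDC2 intervals overlapped. For the S phase genes the thinned shares were 13.3% of cDC1, 4.22% of cDC2, 5.35% of pDC and 11.9% of the Fscn1 class. These are shares of cells with the RNA, and phase was not measured otherwise.

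A few members carried RNA of the migratory state, although the rule bars Fscn1. Of the 122 Ccr7 UMIs in the class, 107 were in 10 cells with at least 3 each (2, 3, 0 and 5 in sets 1 to 4), a group chosen after the values were seen and described without a test. These 10 cells had Ccl22 at 886 CPM against 37.9 in the other 202 and Relb at 495 against 52.9. Il4i1 was at 182 against 0.88, with 14 UMIs in 3 of the 10 cells. Cd274, which encodes PD-L1, was at 117 against 22.9, with 9 UMIs in 4 of them. Apol7c was at 339 CPM against 32.6, with 26 UMIs in 3 of the 10 cells, and 1 cell of set 4 held 17 of them. Xcr1 was alike, 222 against 229 CPM, while Clec9a was at 78.2 against 177 and Naaa at 78.2 against 555. The Il12b UMIs of the class were nearly all here, 69 of 76, in 3 cells, and 1 cell of set 1 held 64 of them. The same cell held 50 of the 68 Ccl22 UMIs of the 10 cells, of which 9 had a Ccl22 UMI. Another cell of set 1, without Ccr7, held 29 of the 63 Apol7c UMIs and 104 of the 394 Cxcl9 UMIs. The 10 cells had a median of 7886.5 UMIs, against 4259.5 in the others.

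The class defined by Fscn1, with at least 2 of Ccl22, Ccr7, Cacnb3, Il4i1, Socs2 and Tmem123, held 173 cells. Of these, 96 had a UMI of the endothelial genes Egfl7, Kdr, Cdh5 or Ptprb. Such a UMI was also in 38 of 212 cDC1, 60 of 394 cDC2 and 285 of 884 pDC. Only sets 2 to 4 had the 20 cells needed. Over 3382 genes, 138 were at least 2-fold higher in cDC1 in each of the 3 sets (4.08%) and 341 lower (10.1%). The furthest lower were endothelial genes such as Fabp4, a fatty acid binding protein gene, at 63.2 against 3341 CPM. The furthest higher were cDC1 and conventional dendritic cell genes: Rab7b at 312 against 5.03 CPM, Ppt1 at 731 against 48.3, Ifi205 at 327 against 6.04, Gm2a, the ganglioside activator protein, at 969 against 65.4, Havcr2 at 80.8 against 1.01 and the integrin gene Itgb7 at 156 against 7.04. Without the 96 cells 77 remained and 2 sets could be used, while all 212 cDC1 were kept. Then 182 of 2884 genes were higher and 270 lower, of which 73 and 51 were shared with the calls over all cells. The number higher also moved to 208 without set 3 and 233 without set 4. The median of all genes was -0.17 with all cells and 0.06 without the 96, and with it set to 0 in each set 161 genes were higher and 309 lower. Of the MHC class II list 9 of 11 genes were higher in every set (19.8% of all genes) and 6 were called, with a median log2 ratio of 1.67 with all cells and 0.51 without the 96. Of the maturation list 5 of 6 genes were lower in every set (31.5% of all genes) and 4 were called, with medians of -2.77 and -3.18. The NF-kB list had medians of -0.43 and -1.31, with 1 of 17 and 9 of 19 genes called lower (341 of 3382 and 270 of 2884 over all genes).

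Against 884 pDC, chosen by Siglech with at least 2 of Bst2, Ccr9, Ly6d, Tcf4, Cox6a2 and Klk1, 142 of 2992 genes were at least 2-fold higher in cDC1 in all 4 sets (4.75%) and 314 lower (10.5%). The median log2 ratio of all genes was -0.29. Set to 0 in each set, it gave 193 higher and 220 lower, so the excess of lower genes shrank with that scaling. MHC class II genes were higher: 8 of 11 were called, with a median of 1.73, and H2-Eb1 was at 6577 against 1106 CPM. Ifi205 was at 327 against 4.77 CPM (median log2 ratio 4.58), the phospholipase-like gene Plbd1 at 656 against 33.4, the creatine kinase gene Ckb at 486 against 27.7, Cxcl9 at 325 against 11.7 and Cxcl16 at 289.8 against 19.1. The survival gene pair stood out here, with Bcl2a1d at 335 against 13.4 CPM and Bcl2a1b at 400.5 against 21.7. The NF-kB list, lower than in cDC2, was higher than in pDC, with a median of 0.63, 3 called higher, and 8 of 15 genes higher in every set (19.3% of all genes) and 2 lower (43.1%).

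The genes furthest lower than in pDC included genes known from that lineage and from lymphoid cells. Spib, an Ets transcription factor of pDC, was at 2.48 CPM against 321, 1054, 605 and 483 in sets 1 to 4 of pDC. Dntt, the terminal transferase of lymphoid progenitors, had no UMI in cDC1 and was at 202 CPM in pDC, at least 81.7-fold lower against the limit of 3 UMIs, 2.48 CPM. Gm21762 and Sla2 also had none and were at 886 and 217 CPM, at least 358-fold and 87.5-fold lower. The B-cell adaptor gene Blnk was at 3.3 against 365 CPM and the lectin gene Cd209d at 2.48 against 348.

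Levels summed over the cDC1 also varied between sets. Among 577 genes at 200 CPM or more, the range over the 4 sets had a median of 0.84 on the log2 scale, and in 226 it was over 2-fold. The widest included globin, hepatocyte and immunoglobulin genes. Among these were Hba-a2 at 24.4, 2020.0, 3183 and 755 CPM, Apoa1 at 163, 848, 62.3 and 2176 and Igha at 36.7, 400.5, 1242 and 219. Apoe, at 6138, 636, 156 and 2973 CPM, was highest in set 1, as was the sum of the 8 macrophage markers given above. The source of its RNA was not tested. The top 5 cells held 94.8% of the Hba-a2 UMIs and 66.3% of those of Apoe, against 9.77% of those of Igha, so the globin range was that of a few cells. Igha was highest in set 3 of the cDC1 and, at 7279, 11619, 37549 and 4667 CPM, also among all other cells. Of the dendritic genes, Nr4a3 and Cxcl9 ranged as given above. Whether a range between sets reflects genotype, animal or handling cannot be told apart here.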

How the data were processed

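Tumour-bearing livers were digested and single cells were captured with the 10x Single Cell 3' v2 kit, per the labels' protocols. CASAVA 1.8, Cell Ranger, Seurat and the mm10 build are named per the submitters' processing notes, with the role of each, the counting settings and the filter on cells not given in the sources used here. A table of 17813 genes by 24802 cells was deposited, each value the natural log of 1 plus the UMIs in 10000 of the cell. Whole UMIs were recovered from all values (tolerance 0.001), 65920312 in all, and the shallowest cell had 201 genes. Cells were not clustered, no doublet caller was run and no cells were removed as doublets.

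Classes were chosen by detected genes. UMIs were summed over a class within a barcode set, scaled to 1000000, and compared as log2 ratios with a pseudocount of 10 CPM in sets with at least 20 cells of both classes, over genes at 50 CPM or more in either class and outside both rules. Intervals are exact, at 95%, and cover counting error only. A level from no UMI was limited at 3 UMIs. The members, classes and gene lists were chosen with earlier results of these data known, and class comparisons stand in for the genotype comparison, which the table does not allow. Genes were named by rule: up to 4 of each list with the highest level over cDC1 and cDC2, the 10 furthest higher and 10 furthest lower in each comparison by the set nearest 0, and the genes of the rule. Others are marked as chosen after their values were seen. A few genes met this rule but are left out here. The cells rich in RNA of another cell type (at least 5 C1q UMIs, 5 Krt8 and Krt18 UMIs, 100 globin UMIs or 20 S100a8 and S100a9 UMIs) and the endothelial genes were defined after seeing the data. Python 3.11.15, numpy 2.4.6, scipy 1.17.1, pandas 2.3.3 and matplotlib 3.10.9 were used, and the comparison was tested on simulated data.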

Additional observations from a re-analysis of the deposited data

How the results depend on the processing

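Among the genes named by rule in a comparison, none that was called there changed sign under an alternative in which it was tested. For the other genes named in the text this was not checked. Some list medians did. Against the Fscn1 class, for example, the median of all genes went from -0.17 to 0.06 without the cells of that class with an endothelial marker. That of cross-presentation genes went from 0.23 to -0.11 without cells rich in RNA of another cell type. The share of cDC1 was 1.20% among cells with at least 500 genes, 0.738% with at least 3 supporting genes (and with Cst3 not counted), 0.274% with both Xcr1 and Clec9a, and 0.721 to 1.06% with 1 barcode set left out. The share with G2 and M UMIs was 71.2% at 1 UMI, 31.6% at 3 UMIs, 13.7% after thinning, 7.11% after thinning without Hmgb2 and Tubb4b (chosen after seeing the data), and 40.0 to 53.8% with 1 set left out. With a pseudocount of 50 CPM, 11 genes were called higher and 27 lower than in cDC2, 62 and 99 than in the Fscn1 class, and 68 and 148 than in pDC. With a filter of 200 CPM these counts were 12 and 27, 45 and 123, and 51 and 120. With both Xcr1 and Clec9a only 1 set had enough cells, and the counts were 210 and 305, 379 and 996, and 286 and 598. With 1 set left out they ranged from 41 to 54 and 77 to 85, 163 to 233 and 445 to 488, and 157 to 164 and 344 to 390. The filter and the choice of sets change what was tested by construction, and a larger pseudocount shrinks every ratio. After thinning, 39 genes were higher and 58 lower than in cDC2, of which 21 and 39 were among the main calls. Of the values of single genes named against cDC2, 1172 of 1421 moved by no more than the counting error of the gene's ratio, with the sets pooled. These moves were not measured against the range over sets. No paired analysis was possible because, for the genotypes, the cells are not tied to samples; classes were compared within each barcode set. Genes under about 50 CPM rest on few UMIs in 212 cells.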
